A study of Mus musculus with 5 samples.

Results

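Among 18221 islet cells in 5 single-cell RNA libraries, 155 cells carry the cell type name neuron in the deposited annotation. They are the whole of deposited cluster 13, and no cell outside that cluster has the name. The members were chosen by that annotation alone. Expression per gene was not analysed here, so the name was not checked against marker genes of neurons, glia or endocrine cells, and the word neuron stands for the deposited annotation throughout.

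Islets are supplied by sympathetic, parasympathetic and sensory nerve fibres that adjust the secretion of insulin and glucagon. The cell bodies of many of these fibres lie outside the pancreas, whereas those of intrapancreatic ganglia lie within it, and Schwann cells, the glia of peripheral nerves, wrap the islet surface. Islet endocrine cells are themselves excitable and share many genes with neurons, among them genes of ion channels and of regulated vesicle release.

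The mice were Atf6afl/fl (control) or RIP-Cre;Atf6afl/fl (cKO), so both genotypes carried the floxed gene of ATF6α, a transcription factor of the endoplasmic reticulum stress response, and the cKO mice alone carried the recombinase. RIP-Cre is driven by a rat insulin promoter and is active mainly in beta cells, with known activity in some neurons of the brain. Diets with 10% (normal) or 60% (high-fat) of energy as fat began at 6 weeks of age, and the mice were 22 weeks old when islets were isolated. Each library pooled hand-picked islets of 2 mice, and no source used here gives strain or sex. On the normal diet there were 7998 control cells and, in batches 1 and 2 of the cKO group, 40 and 1033 cells. On the high-fat diet there were 6667 control and 2483 cKO cells. The sample titles name a batch for the cKO normal-diet libraries alone, and all other libraries were taken as batch 1. In the tables the cKO normal-diet libraries are numbered 1 and 2, and these numbers were read as the batches of the titles. Every value tied to the 40-cell library or to batch 2 rests on that reading. With 40 cells, the batch 1 cKO normal-diet library stands apart, and values are given with and without it.

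Among the libraries that held neurons, the control high-fat library had the highest share. It held 118 neurons, or 1.77% of its cells (exact Clopper-Pearson 95% interval 1.47 to 2.12%). The cKO high-fat library held 21 neurons, or 0.846% (0.524 to 1.29%). The control normal-diet library held 12 neurons, or 0.150% (0.0775 to 0.262%), although it was the largest library. In the cKO normal-diet group, the batch 2 library held 4 neurons, or 0.387% (0.106 to 0.988%), and the batch 1 library held 0 of 40 cells, which allows a share of up to 7.50% by the limit of 3 cells used here for a count of 0 (two-sided exact upper limit 8.81%). Thus 76.1% of all neurons came from a library that supplied 36.6% of all cells, and 7.74% came from the library that supplied 43.9%. Counting error is all that these intervals cover, and fewer cells of a type cannot be told apart from lower recovery of that type during dissociation and filtering.

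**Figure D1:**
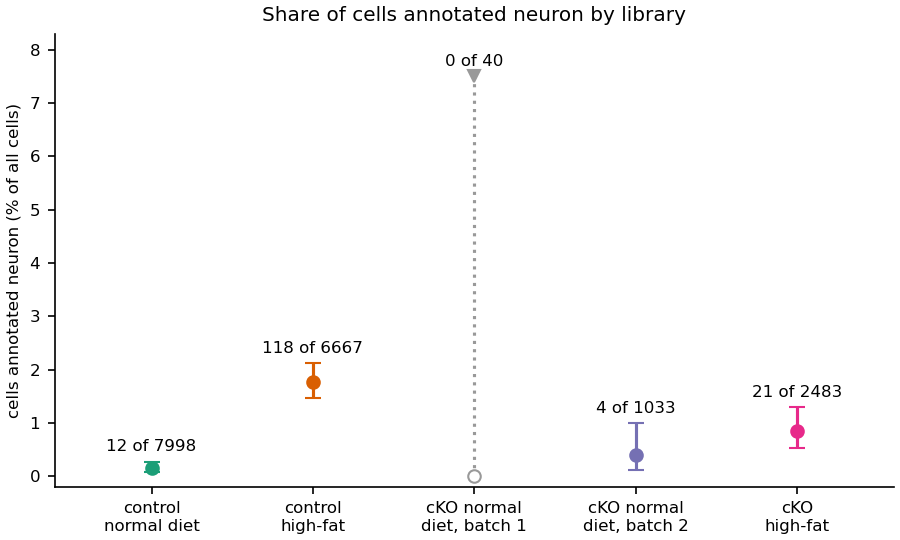
Share of all cells annotated neuron (y axis, %) in each of the 5 libraries (x axis), with exact 95% binomial intervals as bars and the number of neurons and cells above. The control high-fat library is highest at 1.77% and the control normal-diet library lowest among those with neurons at 0.150%, and the open point with a dotted line is 0 of 40 cells, whose limit of 3 cells is 7.50%.

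Shares have a fixed sum, so neurons were also counted against 3 reference classes. Per 100 endocrine cells (beta, alpha, delta and PP cells together) the control high-fat library had 1.90 neurons (1.57 to 2.29), and its normal-diet counterpart had 0.158 (0.0816 to 0.276). In the cKO libraries there were 0.882 (0.545 to 1.35) on the high-fat diet and 0.425 (0.116 to 1.09) in the batch 2 normal-diet library. The order of the libraries was that of the shares, since endocrine cells are most cells of each library.

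Endothelial cells line the islet capillaries and, like neurons, are a minor class. Per 100 endothelial cells there were 166 neurons (123 to 226) in the control high-fat library and 140 (68.8 to 292) in the cKO high-fat library. The normal-diet libraries had 15.0 (7.44 to 27.7) in the control and 30.8 (7.31 to 99.6) in batch 2 of the cKO group. Neurons therefore outnumbered endothelial cells in both high-fat libraries by count, 118 to 71 and 21 to 15, and endothelial cells outnumbered neurons in both normal-diet libraries that had any, 80 to 12 and 13 to 4. In the cKO high-fat library the interval includes equal numbers.

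Immune cells, mainly macrophages in healthy islets, also gave higher values on the high-fat diet. Per 100 immune cells there were 41.8 neurons (33.5 to 52.1) in the control high-fat library and 31.3 (18.2 to 51.8) in the cKO high-fat library. The control normal-diet library had 6.03 (3.06 to 10.8), and the batch 2 cKO normal-diet library had 5.41 (1.44 to 14.4). The batch 1 cKO normal-diet library had 31 endocrine, 7 immune and 0 endothelial cells. By the limit of 3 cells, its 0 neurons allow up to 9.68 per 100 endocrine cells and 42.9 per 100 immune cells (two-sided exact upper limits 12.6 and 69.4), which includes every value of the other libraries for both classes, and no value per endothelial cell could be formed.

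**Figure D2:**
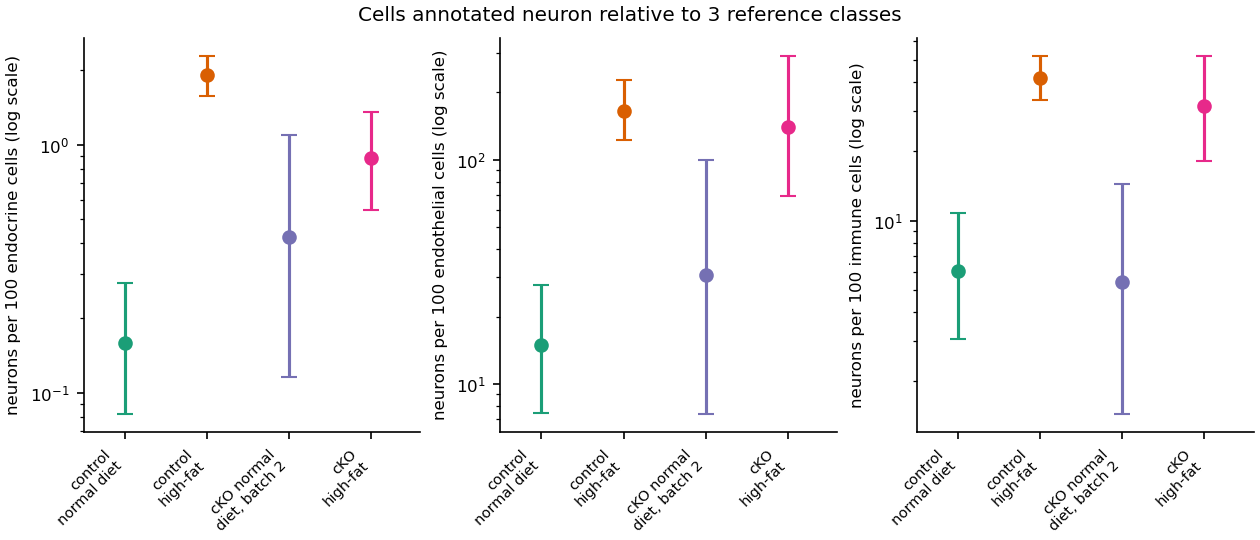
Neurons per 100 endocrine, endothelial or immune cells (y axes, log scale) in the 4 libraries that held neurons, with exact conditional 95% intervals as bars. Both high-fat libraries lie above both normal-diet libraries for each of the 3 classes, by the narrowest margin per 100 endocrine cells, 0.882 against 0.425.

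High-fat against normal diet in control mice asked how the frequency of these cells differed with diet while ATF6α was present. The neuron share was 11.8-fold higher on the high-fat diet. On the log2 scale this is 3.56, with a 95% counting interval of 2.70 to 4.42. Against endocrine cells the log2 ratio was 3.59 (2.73 to 4.45), against endothelial cells 3.47 (2.50 to 4.44), against immune cells 2.79 (1.90 to 3.69), and against all cells other than beta cells 4.37 (3.50 to 5.23). Every interval lay above 0. Each diet had a single control library, so the difference has no replicate check within this genotype.

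The same diets in cKO mice gave a higher neuron share on the high-fat diet, with less certainty. The mean of both normal-diet libraries was 0.194% ± 0.274 (SD, n = 2), against 0.846% on the high-fat diet, a log2 ratio of 2.13 (0.59 to 3.67). That mean includes the 0 of 40 cells as a true 0, and its interval carries no counting error from that library. Without the 40-cell library the log2 ratio was 1.13 (-0.41 to 2.67) per cell and 1.05 (-0.49 to 2.60) per endocrine cell, and both intervals include 0. Against the other classes, again without that library, the log2 ratios were 2.19 (0.31 to 4.06) per endothelial cell, 2.54 (0.92 to 4.15) per immune cell and 3.50 (1.94 to 5.05) per cell other than beta cells. Diet and batch cannot be told apart in these 5 values, since the batch 2 library was then the sole normal-diet library. The pair gave no usable spread between replicates: at the share of batch 2, the 40-cell library would hold 0.155 neurons.

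Between genotypes on the high-fat diet, both libraries were taken as batch 1, although their titles name no batch. The share was lower in the cKO library, 0.846% against 1.77%, a log2 ratio of -1.07 (-1.73 to -0.40). The direction of this ratio held per endocrine cell, at -1.11 (-1.78 to -0.44). Per endothelial cell it was -0.25 (-1.29 to 0.80), per immune cell -0.42 (-1.19 to 0.36) and per cell other than beta cells -0.28 (-0.97 to 0.41), and these 3 intervals include 0. The lower share thus did not exceed counting error once beta cells were left out of the denominator. The control library carried no Cre, so the loss of ATF6α and the presence of RIP-Cre cannot be told apart.

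On the normal diet, 16 neurons in all were available for the comparison of genotypes. The mean cKO share of 0.194% and the control share of 0.150% gave a log2 ratio of 0.37 (-1.26 to 2.00). Without the 40-cell library it was 1.37 (-0.26 to 3.00) per cell, 1.04 (-0.80 to 2.88) per endothelial cell and -0.16 (-1.84 to 1.52) per immune cell. Each of these intervals includes 0. The interval of the 0.37 carries no counting error from the 40-cell library. Without that library, the batch 2 cKO library stands against a control library taken as batch 1 and without Cre. Loss of ATF6α, the presence of RIP-Cre and batch thus cannot be told apart in those values.

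The diet log2 ratio in control mice exceeded that in cKO mice by 1.43 (-0.33 to 3.19) with the mean of both cKO normal-diet libraries, and by 2.43 (0.67 to 4.19) without the 40-cell library. The cKO value in the second case sets the batch 2 library against a library taken as batch 1, and the difference was not tested across libraries. As shares of all cells, the control libraries differed more with diet in either case, and the interval excluded 0 in the second case alone. The excess depended on the reference class. Without the 40-cell library, control and cKO log2 ratios were 3.59 and 1.05 per endocrine cell, and 3.47 and 2.19 per endothelial cell. Per immune cell they were 2.79 and 2.54, and per cell other than beta cells 4.37 and 3.50. With the mean of both cKO libraries, the cKO ratio was the larger per immune cell (3.54) and per cell other than beta cells (4.50). Per endocrine cell it was the smaller (2.05).

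**Figure D3:**
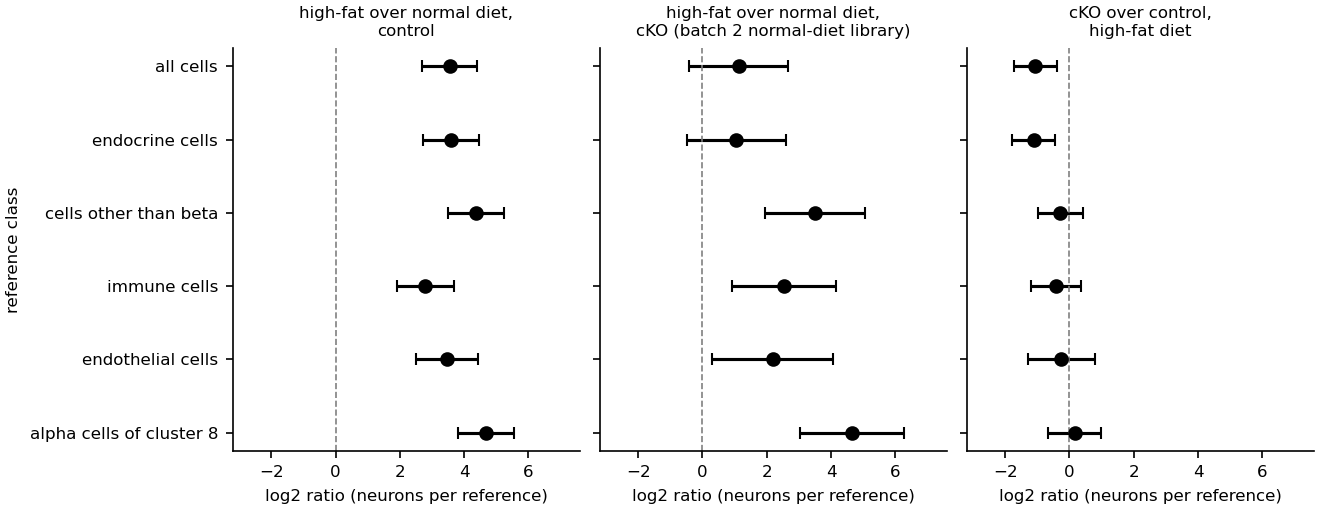
Log2 ratios of neurons per cell of each reference class (x axis, with 95% counting intervals; y axis, the class) for diet in control mice, diet in cKO mice without the 40-cell library, and genotype on the high-fat diet. The control diet ratios lie between 2.79 and 4.68, and the genotype ratios run from -1.11 per endocrine cell to 0.17 per alpha cell of cluster 8, a class added after the data were seen.

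Over libraries, with genotypes pooled, the 2 high-fat libraries had a mean share of 1.31% and the 3 normal-diet libraries 0.179%. By point value, both high-fat libraries lay above all normal-diet libraries. The mean, the order and the test below take the 0 of 40 cells as a true 0. By the limit of 3 cells that library allows up to 7.50%, which is above both high-fat shares. The two-sided exact permutation p, taken as double the smaller tail, was 0.20 (adjusted p = 0.40 over the diet and genotype tests). That is the smallest p that this doubled form can give with 10 splits. The same complete separation by diet occurred in 2 of 8 cell types (25.0%), and in 6 of 8 (75.0%) without the 40-cell library. Separation by diet was thus not particular to the neurons. The 8 types include the neurons, and their shares have a fixed sum, so they are not independent. With diets pooled, the 3 cKO libraries had a mean neuron share of 0.411% and the 2 control libraries 0.960%, they overlapped, and the two-sided exact permutation p was 0.60 (adjusted p = 0.60). Such p-values measure the spread between these pooled libraries, and no split of the 5 can go below 0.05.

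In the deposited 2-dimensional UMAP embedding, which is meant to place cells with similar expression near each other, the neurons formed 1 compact group with few exceptions. When neurons within 0.5 embedding units were linked, 153 of 155 (98.7%) fell into 1 group, and the other 2 were single cells. The largest group also held 153 neurons at a linkage of 0.25 units, and 154 at 1 unit. A high linked share alone does not show compactness, since the endocrine clusters had 96.3 to 99.8% of their cells in 1 group at 0.5 units. The longest link of the tree that joins all neurons by the shortest total length was 4.93 units, the next was 0.504 and the third was 0.240, so 1 cell was remote and the rest had no gap over 0.504 units. The median distance of a neuron from the centre of the group, taken as the median position, was 0.28 units, and 149 neurons lay within 1 unit. Endothelial cells, at 0.27 units, and acinar cells, at 0.28 units, had like median distances, whereas the endocrine clusters had 1.08 to 2.55 units. How clusters and embedding were made is not stated, and both can rest on the same expression values, so no test was made of a cluster against the rest.

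The remote cell came from the control normal-diet library. It lay 5.55 units from the centre, had no neuron among its 30 nearest cells, and its nearest cell of another class was a beta cell of cluster 5. The other single cell, from the cKO high-fat library, lay 1.26 units from the centre among alpha cells of cluster 8, again with no neuron among its 30 nearest cells. Both keep the name neuron in the annotation.

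On average 86.3% of the 30 nearest cells of a neuron were neurons (median 96.7%), and 141 of 155 neurons had neurons as over 50% of these neighbours. The same mean share of own-cluster neighbours was 99.0% for endothelial, 93.7% for immune and 81.7% for acinar cells. When all 18221 cells were linked at 0.5 units, 3 groups resulted. All 155 neurons lay in the largest, which held 17134 of the endocrine cells, the 111 acinar cells and 71 immune cells. The 179 endothelial cells formed another group with 2 endocrine cells, and 558 of the immune cells formed the third with 11 endocrine cells. A neuron had a cell of another cluster at a median distance of 0.12 units, against 0.31 for endothelial, 0.66 for immune and 0.46 for acinar cells.

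Alpha cells of cluster 8 were the nearest class by each measure used. Alpha cells secrete glucagon and fall into 2 deposited clusters, 2 and 8. A cell near several neurons is a neighbour of each, and the neighbours that were not neurons came to 637 such pairs over 124 distinct cells. Of the pairs, 575 (90.3%) involved 93 alpha cells of cluster 8, 33 (5.18%) involved 2 beta cells of cluster 6 and 29 (4.55%) involved 29 beta cells of cluster 5. All 29 of the last kind were neighbours of the remote cell alone. The centres of clusters 8, 4 (delta cells) and 12 (endothelial cells) were nearest to that of the neurons, at 3.34, 4.90 and 4.91 units. Cluster 2, the other alpha cluster, was centred 9.00 units away. The nearest single cell of another class was an alpha cell of cluster 8 for 92 neurons, a beta cell of cluster 6 for 62 and a beta cell of cluster 5 for 1. Those 62 shared a single beta cell that lay within the group. Positions in such an embedding do not measure expression, and closeness there does not show that cells are alike in any given gene.

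**Figure D4:**
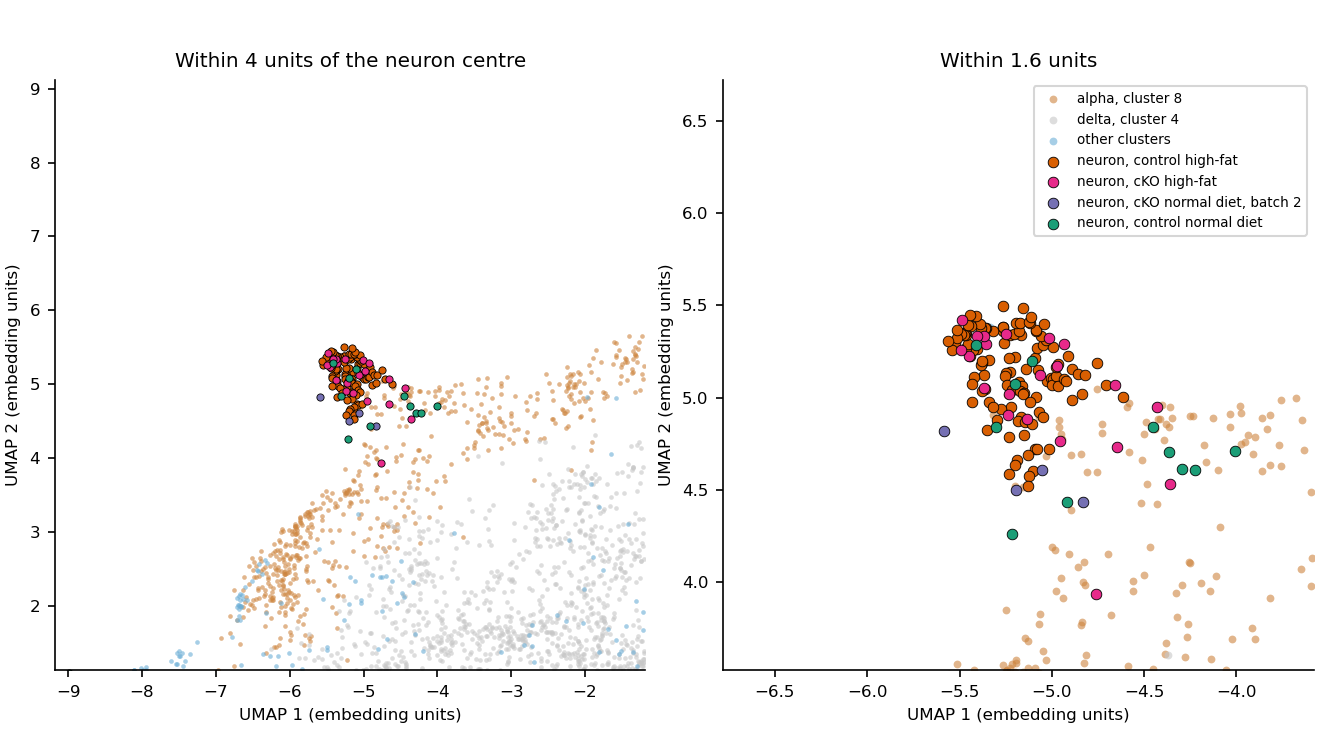
Positions of neurons (outlined points, coloured by library) and of other cells (small points, coloured by class) in the deposited embedding, in units without a physical scale, within 4 units (left) and 1.6 units (right) of the neuron centre. The 153 linked neurons lie next to alpha cells of cluster 8, and some of them lie among those alpha cells. Also among the alpha cells, 1.26 units from the centre, is 1 cKO high-fat neuron that is not linked to the 153.

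The neurons of the libraries did not lie in the same places. In the control high-fat library the distance from the centre ranged from 0.04 to 0.60 units with a median of 0.27, and 113 of 118 neurons lay within 0.5 units. In the cKO high-fat library it ranged from 0.11 to 1.26 units with a median of 0.29, and 16 of 21 lay within 0.5 units. In the control normal-diet library it ranged from 0.05 to 5.55 units with a median of 0.82, and 4 of 12 lay within 0.5 units. The 4 neurons of the batch 2 cKO normal-diet library lay at 0.505, 0.529, 0.622 and 0.771 units, none of them within 0.5 units of the centre. Relative to this centre, the high-fat neurons were thus mostly central and the normal-diet neurons mostly at the margin, with overlap. The centre is itself set mostly by high-fat neurons, so their central position is partly fixed by that choice.

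The neighbours, which come from the same positions and are no separate measure, showed this arrangement in the control libraries. In the cKO libraries the contrast was smaller and rests on 4 normal-diet neurons. In the control high-fat library 117 of 118 neurons (99.2%, exact lower limit 95.4%) had neurons as over 50% of their 30 nearest cells, and in the cKO high-fat library 17 of 21 (81.0%, 58.1 to 94.6%) did. In the control normal-diet library 4 of 12 (33.3%, 9.92 to 65.1%) did, and in batch 2 of the cKO group 3 of 4 (75.0%, 19.4 to 99.4%). Alpha cells of cluster 8 were 43.3% of the nearest cells of control normal-diet neurons and 6.75% of those of control high-fat neurons. They were 22.1% for cKO high-fat neurons and 34.2% for the batch 2 neurons.

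Both the centre and the number of neuron neighbours rest mainly on the control high-fat library, which has most of the neurons. With the centre taken from the 21 cKO high-fat neurons instead, the median distance was 0.80 units for control normal-diet neurons, 0.58 for batch 2 and 0.27 for control high-fat neurons, and 4 of 12 control normal-diet neurons again lay within 0.5 units. This centre too is a high-fat one, and it lay 0.05 units from the centre of all neurons. No normal-diet centre was used, so the change of centre does not test the arrangement. Endothelial cells, as a compact class of like size, showed a smaller contrast between the control libraries: the median distance from their own centre was 0.30 units on the normal and 0.25 units on the high-fat diet, and all 80 and all 71 cells had endothelial cells as over 50% of their neighbours. For immune cells these medians were 1.31 and 0.64 units, with 95.5% and 97.5% of cells among their own class. Median distances thus differed between the control libraries in these classes as well. Such distances measure the spread about a pooled centre and not a shift of position between libraries. The part of such differences in the neuron values was not tested.

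**Figure D5:**
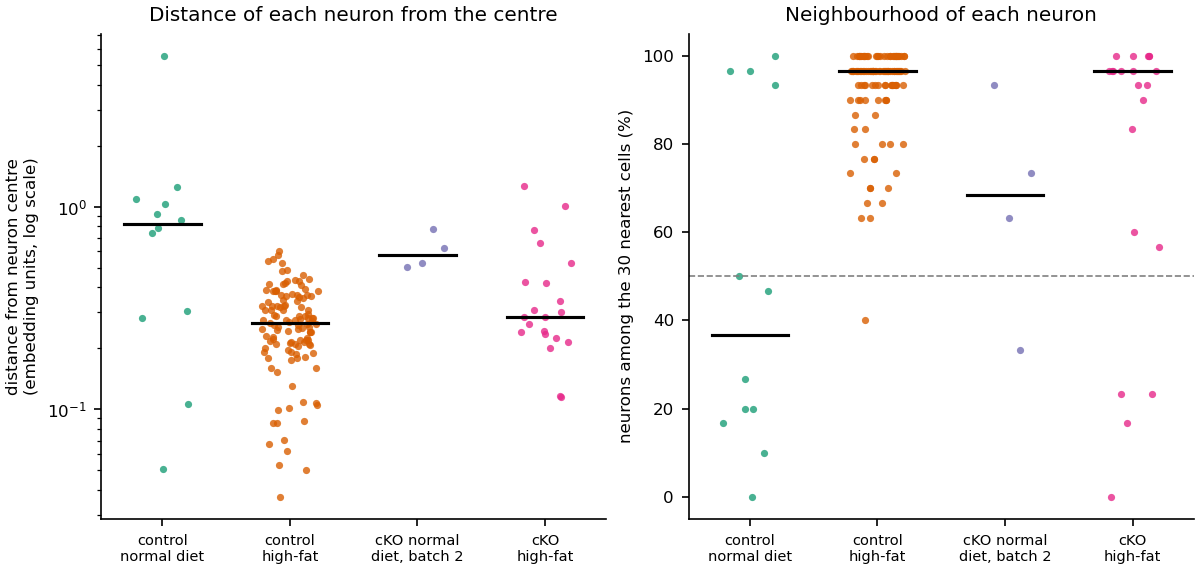
Distance of each neuron from the neuron centre (left, embedding units, log scale) and the percentage of neurons among its 30 nearest cells (right), by library, with medians as black lines and 50% dashed. The control high-fat neurons have a median distance of 0.27 units and the control normal-diet neurons 0.82 units, with 8 of the latter 12 at or below 50%.

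The counts were also taken by position in place of the name. This criterion depends on how many neurons lie nearby, and 118 of 155 neurons came from the control high-fat library, so it favours that library by construction and is no separate measure of the diet difference. If only annotated neurons with over 50% neuron neighbours are counted, 117 of 6667 cells (1.75%) remain in the control high-fat and 4 of 7998 (0.050%) in the control normal-diet library, a log2 ratio of 5.13 (3.70 to 6.57), or 35.1-fold. In the cKO libraries 17 high-fat and 3 batch 2 neurons remain. If instead every cell with over 50% neuron neighbours is counted whatever its name, 125 and 7 cells result in the control libraries, a log2 ratio of 4.42 (3.32 to 5.52). These cells include 15 that are not named neuron over all libraries, 14 of them alpha cells of cluster 8. Between genotypes on the high-fat diet the 2 counts gave log2 ratios of -1.36 (-2.09 to -0.63) and -1.29 (-1.99 to -0.60). The first of these counts was added after the data were seen.

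Within the group, neighbours of cKO high-fat neurons came from each high-fat library at close to the shares that neuron numbers give. This comparison rests on 21 cells. Of the 10 nearest neurons of a cKO high-fat neuron, 76.2% came from the control high-fat library, where its number of neurons gives 76.6%, and 11.0% came from the own library, where 13.0% is given. Control high-fat neurons had their own library for 83.7% of these neighbours against 76.0%, a ratio of 1.10. Control normal-diet neurons had their own library for 17.5% against 7.14%, a ratio of 2.45, and control high-fat neurons for 50% against 76.6%. The ratio of 2.45 rests on 12 cells. An exact binomial interval over these cells, with the mean share rounded to whole cells, ran from 0.29 to 6.78 and includes 1. The ratio was 4.43 (1.39 to 9.12) with 5 and 1.81 (0.29 to 6.78) with 20 neighbours. These 12 cells come from 1 library and can share neighbours, and each cell gives a share rather than a yes or no. None of these intervals therefore measures the error of the ratio, and no conclusion is drawn from them.

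Cell barcodes recurred in a few libraries. Of 18081 distinct barcodes, 140 occurred in more than 1 library, and 1.54% of all cells and 3 of 155 neurons (1.94%) had such a barcode. The cells that shared a barcode with these 3 neurons were an acinar, an alpha and a beta cell, and none was a neuron.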

How the data were processed

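The 4 deposited tables name each cell's library, cell type and cluster and give its UMAP position, a score without a unit. The submitters' processing notes name GRCm39 and Cell Ranger 7.1.0. No source used here gives the cell filters, doublet treatment, integration, clustering or naming rule, and doublets were not called here. Depth per cell is unknown, so cell numbers set the precision.

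Tables were joined by cell identifier, and library names were matched to sample titles by genotype and diet. The endings 1 and 2 of the cKO normal-diet names were read as batch numbers, and the cells of both carry the same identifier suffix, 4. Shares have exact Clopper-Pearson intervals, ratios of 2 cell numbers exact conditional binomial intervals, and log2 ratios delta-method intervals, all at 95%. The cKO normal-diet group is an equal-weight mean of 2 libraries. A count of 0 was given a limit of 3 cells. No p-value was made from cells. Neighbours (30, or 10 among neurons) and single linkage (0.5 units) used Euclidean distance (scipy 1.17.1, Python 3.11.15). In 2000 simulated binomial draws per pair of single libraries, the log2 interval of the share covered the true ratio in 95.2% to 97.0% of draws that gave a value. Intervals with the mean of both cKO normal-diet libraries, against the other classes, or of the difference of log2 ratios were not simulated.

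Clusters were named if among the 3 nearest centres or at least 5% of neighbours, and cluster 5 was named after its value was seen. Members, classes and tests were chosen with earlier results of these data known.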

Additional observations from a re-analysis of the deposited data

How the results depend on the processing

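Of 64 alternative values over 14 results, 56 stayed within the counting interval of the reported value or kept its direction in the permutation tests. A value within that interval can still have an interval of its own that includes 0. Examples are 1.13 (-0.41 to 2.67) for diet in cKO mice without the 40-cell library, and -0.42 (-1.19 to 0.36) for genotype on the high-fat diet per immune cell. For diet in control mice, the log2 ratio of 3.56 moved to 4.42 with membership by neighbours, 5.13 with annotated neurons among neurons, and 4.68 per alpha cell of cluster 8. The first and second of these select cells by nearby neurons, most of which are control high-fat cells, so they favour that library by construction. For genotype on the high-fat diet, -1.07 moved to -0.25 per endothelial cell and -0.28 per cell other than beta cells, and it reversed to 0.17 per alpha cell of cluster 8 (-0.66 to 1.00). For diet in cKO mice, 2.13 moved to 4.50 per cell other than beta cells, and without the 40-cell library values ran from 1.05 to 4.65 over the denominators. For genotype on the normal diet, where the interval includes 0, values without that library ran from -0.16 to 1.43, and with it the log2 ratio was -1.16 per immune cell and -0.41 per cell other than beta cells. The cause of these other shifts was not tested. The same-library ratio of control normal-diet neurons, 2.45, was 4.43 with 5 and 1.81 with 20 neighbours. Leaving out either cKO normal-diet library gave differences in mean share between diets of 1.04 to 1.23 percentage points and between genotypes of -0.54 to -0.34, and the control minus cKO diet log2 ratio was 2.43 without the 40-cell library. Ratios against the 40-cell library alone, or with the endothelial or cluster 8 cells it lacks, could not be formed. No paired analysis was possible because the groups share fewer than 2 replicate numbers. The neuron counts of 4 and 12 cells on the normal diet limit every comparison that uses them.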

Other observations

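The alpha cells of cluster 8, next to the neurons in the embedding, had their lower shares in the high-fat libraries, where the neuron share was higher. They were 8.01% of all cells in the control normal-diet library and 18.1% in batch 2 of the cKO normal-diet group, against 3.69% in the control and 1.57% in the cKO high-fat library. Alpha cells of clusters 2 and 8 together followed the same order. They numbered 1925 of 7998 control and 322 of 1033 batch 2 cKO cells on the normal diet. High-fat numbers were 773 of 6667 control and 126 of 2483 cKO cells. The lower share was thus not confined to cluster 8, and a link with the neurons was not tested. There were 48.0 neurons (38.2 to 60.0) per 100 cluster 8 cells in the control and 53.8 (30.1 to 93.8) in the cKO high-fat library. On the normal diet there were 1.87 (0.962 to 3.29) in the control and 2.14 (0.577 to 5.57) in the batch 2 cKO library. Within each diet the genotypes thus had overlapping intervals, and between diets the intervals did not overlap. The 40-cell library had no alpha cell and gives no value. This class was chosen after its nearness to the neurons had been seen, each value comes from 1 library, and the difference was not tested across libraries.

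Of all alpha cells, cluster 8 made up 33.3% in the control normal-diet, 31.8% in the control high-fat, 31.0% in the cKO high-fat and 58.1% in the batch 2 cKO normal-diet library. Within 1 unit of the neuron centre lay 149 neurons, 40 alpha cells of cluster 8 and 1 cell of another class. By library these were 118 neurons and 26 alpha cells in the control high-fat, 19 and 4 in the cKO high-fat, 8 and 4 in the control normal-diet, and 4 and 6 in the batch 2 cKO normal-diet library.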
